A study of Solanum lycopersicum x Solanum pennellii and Solanum lycopersicum with 7 samples.

Results

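The genes described here are 63 successive identifiers near the start of chromosome 1 of tomato, from Solyc01g007260.2 to Solyc01g007880.2, out of 34725 genes listed in each count table. All listed rows between these borders are members, whatever their level. The borders came from a scan of the same leaf libraries for neighbouring genes that differed at least 2-fold between the lines IL2-6 and IL3-2, so differences between the lines, the calls included, are given for the members as a description and support nothing. Where the libraries of the lines are said not to overlap, this is a description too, since its share over all genes was not counted. IL2-6 replicate 2 raises the mean of its line in many members and was known to stand apart when the block was proposed. Its pattern is therefore a description as well and has no test.

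IL2-6 and IL3-2 are introgression lines, plants of a cultivated tomato background that carry a chromosome segment of the wild relative Solanum pennellii. By its name IL2-6 carries its segment on chromosome 2, and the labels describe it as having enhanced biomass production. By its name IL3-2 carries its segment on chromosome 3, so neither name points to the chromosome of this block. Leaf RNA of field-grown plants was sequenced in 3 libraries of IL2-6 and 3 libraries of IL3-2, and 1 library of M82, the cultivated control, was deposited as a list of variants, which were not analysed here. Whether each library of a line had plants of its own is not said in the labels. A kit that keeps strand and one that does not are both named in the labels, but not which libraries each was used for, so in any difference between the lines the plant line and the kind of library cannot be told apart. The IL2-6 libraries held 18479252 to 21320790 counts and the IL3-2 libraries 28828109 to 40146308.

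A plant cell holds genomes in the nucleus, the plastids and the mitochondria. Nuclear chromosomes carry stretches of DNA copied from both organelles, and a read of an organelle transcript can align to such a copy. Plastid transcripts are abundant in green leaves but mostly lack the long poly(A) tail by which messenger RNA kits capture nuclear transcripts, so their share of a library can vary with how it was made. Reads from 1 common pool of RNA would be expected to go up and down together from library to library and to keep their genes in a fixed ratio. The files give identifiers alone, with neither gene names nor sequences, so whether any member resembles an organelle gene was not tested, the leaf identity of the samples was not checked against marker genes, and no member is given a function below.

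The members together took a far larger part of the IL2-6 libraries than of the IL3-2 libraries, and IL2-6 replicate 2 held the most. Their summed level was 3537, 9830 and 2775 CPM in replicates 1, 2 and 3 of IL2-6, where CPM is counts per 1000000 of the scaled library total, against 465, 495 and 512 CPM in the IL3-2 libraries. All 3 IL2-6 libraries lay above all 3 IL3-2 libraries, and replicate 2 stood 3.12-fold above the mean of replicates 1 and 3. The mean over the 3 IL2-6 libraries was 5381 ± 3872 CPM (SD), against 491 ± 23.8 CPM over the 3 IL3-2 libraries, an 11.0-fold difference that was 6.43-fold without IL2-6 replicate 2. As a part of all counts, the members made up 0.339%, 0.912% and 0.264% of the IL2-6 libraries and 0.0491% to 0.0539% of the IL3-2 libraries.

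**Figure D1:**
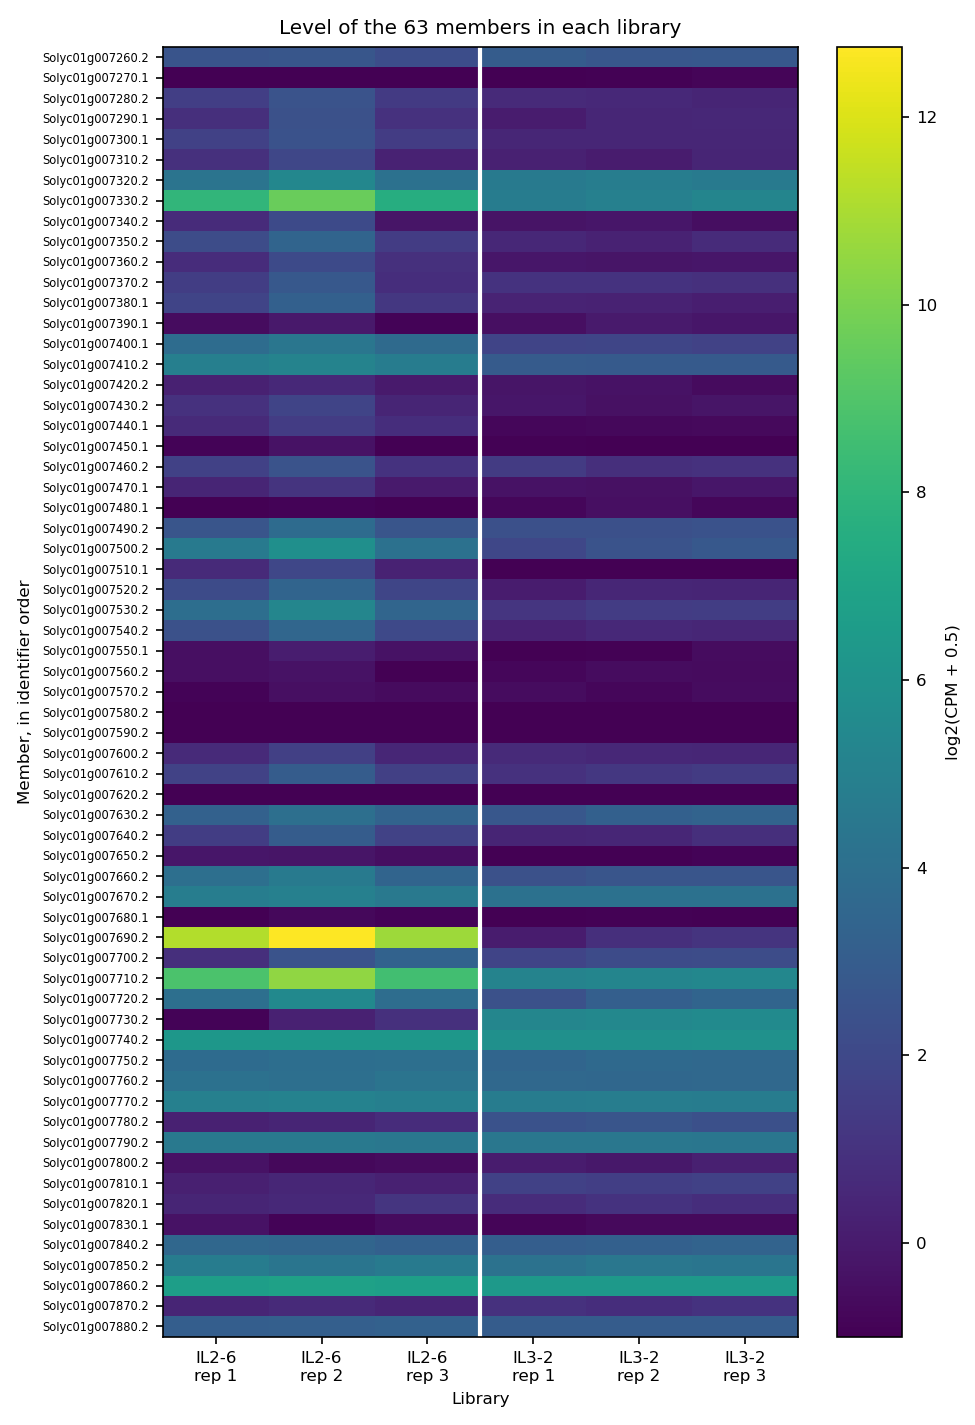
Level of each of the 63 members (rows, in identifier order) in the 3 IL2-6 libraries (left) and the 3 IL3-2 libraries (right), as log2(CPM + 0.5). Solyc01g007690.2, Solyc01g007710.2 and Solyc01g007330.2 are brightest in IL2-6, most of all in replicate 2, while none of the rows from Solyc01g007730.2 down reaches 1.5 times both other IL2-6 libraries in replicate 2.

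Most of this sum came from 3 members. Solyc01g007690.2 had 2268, 6883 and 1685 CPM in the IL2-6 libraries, against 0.525, 1.28 and 1.59 CPM in the IL3-2 libraries, where it was counted only 16, 44 and 67 times. Its mean was 3195-fold higher in IL2-6, and 1749-fold higher without IL2-6 replicate 2. It held 64.1%, 70.0% and 60.7% of the block's counts in IL2-6 and 0.113% to 0.310% in IL3-2, so that a member that dominated the block in 1 line was a minor one in the other.

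Solyc01g007710.2, separated from it by a single identifier, had 463, 1392 and 388 CPM in IL2-6 and 34.6, 38.1 and 41.0 CPM in IL3-2. Solyc01g007330.2 had 265, 784 and 188 CPM in IL2-6 and 26.4, 31.0 and 38.0 CPM in IL3-2. The line means of these members differed 19.7-fold and 13.0-fold, which became 11.2-fold and 7.11-fold without IL2-6 replicate 2. With Solyc01g007690.2 they made up 84.7%, 92.2% and 81.5% of the block's counts in IL2-6 and 13.2% to 15.7% in IL3-2. The remaining 60 members summed to 540, 771 and 514 CPM in IL2-6 and 404, 425 and 432 CPM in IL3-2, groups that still did not overlap, with means 1.45-fold apart (1.25-fold without IL2-6 replicate 2). Gene lengths were not available, so levels of different members are not ranked per length.

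**Figure D2:**
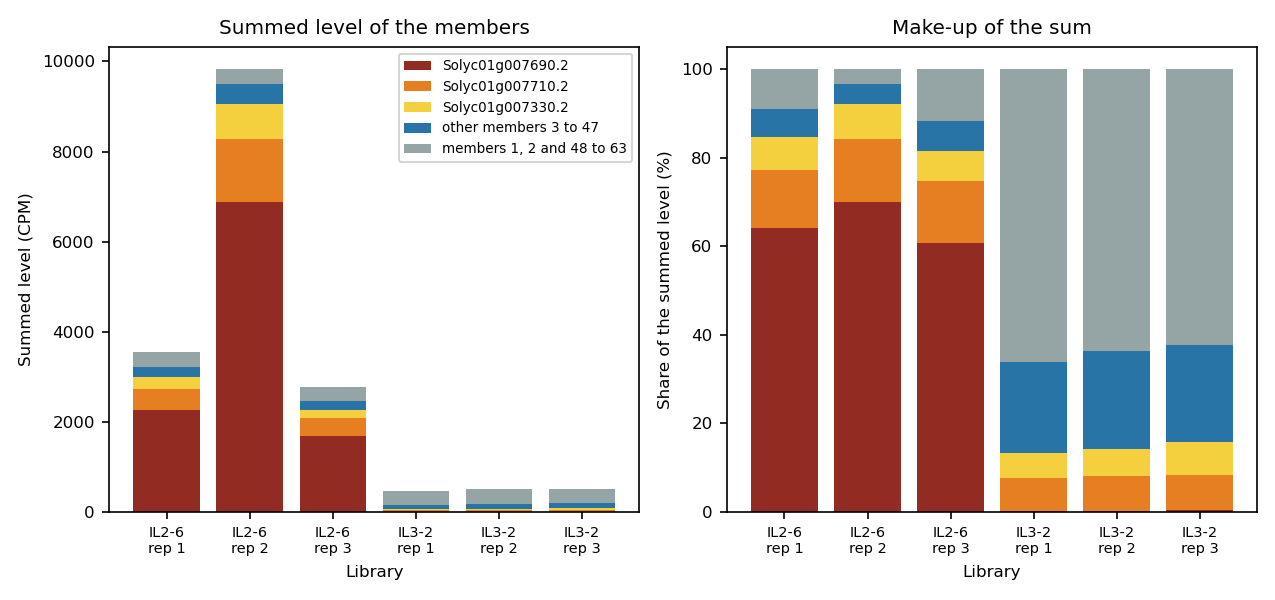
Summed level of the 63 members in CPM (left panel) and the percentage of that sum held by each part (right panel) in each IL2-6 library and each IL3-2 library. Solyc01g007690.2 holds 60.7% to 70.0% of the block in IL2-6 and at most 0.310% in IL3-2, where the grey part, members 1, 2 and 48 to 63, is the largest.

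The excess of IL2-6 replicate 2 was carried in amount by the 3 abundant members and in number by many others. The summed level in replicate 2 was 3.12 times the mean of replicates 1 and 3 over all members, 2.50 times without Solyc01g007690.2 and 1.46 times without the 3 most abundant. Among the 55 members with at least 10 counts over the IL2-6 libraries, replicate 2 was the highest of the line in 42, or 76.4%, against 39.4% of all genes with that many counts. It reached at least 1.5 times both other IL2-6 libraries in 31 members, or 56.4%, against 2.33% of all genes. Replicate 1 stood apart in this way in 2 members (3.64%), against 1.78% of all genes, and replicate 3 in 3 members (5.45%), against 1.22%. With at least 100 counts, 25 of 37 members (67.6%) had their highest IL2-6 library at least 1.5-fold above the lowest, against 3.41% of all genes. The 1.5-fold limit was chosen after the values had been seen.

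The 31 members lay between Solyc01g007280.2, the third member, and Solyc01g007720.2, member 47. They formed 9 runs of adjacent identifiers, the longest of 12 members from Solyc01g007280.2 to Solyc01g007390.1 and the next of 7 from Solyc01g007490.2 to Solyc01g007550.1. Of the 45 members in this stretch, 38 had at least 10 counts, and replicate 2 was the highest IL2-6 library in 36 of them. In the 16 members that follow, from Solyc01g007730.2 to the end, replicate 2 was highest in 5 and reached the 1.5-fold limit in none. The 1.5-fold limit itself set the ends of this stretch, so sums over it are no second sign of a border. Members 3 to 47 had 3217, 9498 and 2449 CPM in IL2-6, against 157, 180 and 193 CPM in IL3-2. Of the 9498 CPM in replicate 2, 6883 came from Solyc01g007690.2. The last 16 had 314, 326 and 321 CPM in IL2-6, against 301, 309 and 313 CPM in IL3-2.

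**Figure D3:**
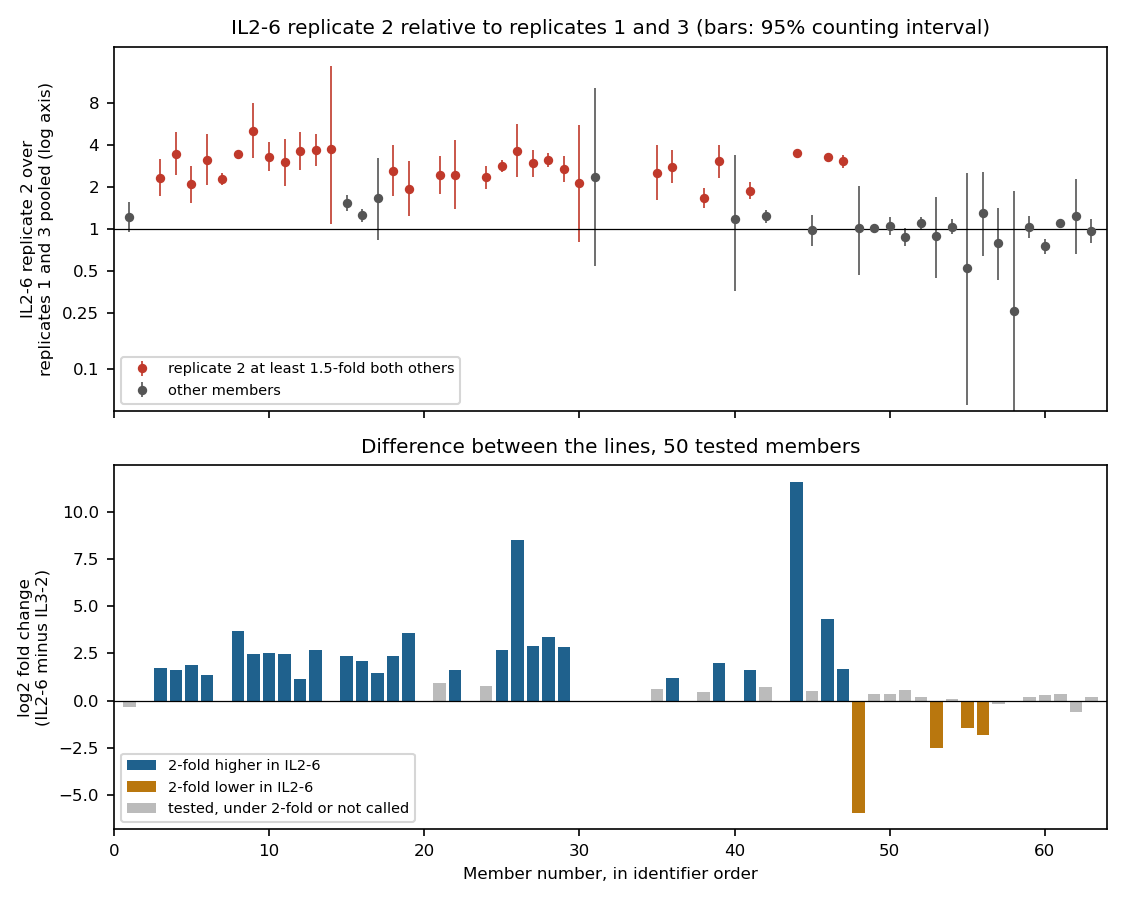
Top: for the 55 members with at least 10 counts over IL2-6, the level in IL2-6 replicate 2 divided by that in replicates 1 and 3 pooled, on a log axis, with 95% exact counting intervals; the lower end of 1 interval runs below the axis. Bottom: log2 fold change of IL2-6 minus IL3-2 for the 50 tested members. Both the replicate 2 excess, in 31 members, and the 27 members at least 2-fold higher in IL2-6 end at member 47.

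The most abundant members had replicate 2 ratios close to each other. The ratio of replicate 2 to replicates 1 and 3 pooled was 3.47 for Solyc01g007690.2, with a 95% exact binomial interval of 3.44 to 3.51. It was 3.27 (3.20 to 3.33) for Solyc01g007710.2 and 3.46 (3.37 to 3.55) for Solyc01g007330.2. These intervals cover counting error only, since PCR copies of a molecule were not marked. Over the 31 members the ratio had a median of 2.94 and a range of 1.66 to 5.01. The intervals of 20 of them included 3.11, the ratio of the summed block, while those of the 3 abundant members lay above it. Members with few counts have wide intervals, such as 1.08 to 14.6 for Solyc01g007390.1. Over all 55 members, 23 intervals included 3.11, 28 lay below it and 4 above it. Among all 55 members, 34 had an interval above 1, 20 had one that included 1, and 1 had one below 1.

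Several members in the middle of the stretch moved less with replicate 2. Solyc01g007410.2 had 29.7, 35.1 and 26.5 CPM in IL2-6 and 7.19, 7.07 and 7.01 CPM in IL3-2. Its ratio of replicate 2 to the others was 1.25 (1.13 to 1.38), well under that of the abundant members, although its line means differed 4.30-fold. Solyc01g007400.1, its neighbour, had 13.8, 20.4 and 12.8 CPM in IL2-6 and 3.05, 3.17 and 2.79 CPM in IL3-2, with a ratio of 1.54 (1.34 to 1.76). Their IL2-6 libraries all lay above their IL3-2 libraries, so the line difference of this pair did not go with a large replicate difference. Both were named after their values had been seen.

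Solyc01g007320.2 showed the opposite combination. It had 18.9, 40.6 and 16.7 CPM in IL2-6 and 24.8, 27.9 and 25.3 CPM in IL3-2, so replicate 2 lay above the IL3-2 libraries and replicates 1 and 3 lay below them. Its ratio of replicate 2 to the others was 2.28 (2.05 to 2.53), while its mean was 25.4 ± 13.2 CPM over the 3 IL2-6 libraries, against 26.0 ± 1.64 CPM over the 3 IL3-2 libraries (SD). Its log2 fold change was −0.05 with all libraries, −0.54 without IL2-6 replicate 2, and 0.13 and 0.18 without replicates 1 and 3 of that line, so its direction turned with the library left out.

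The order of the other IL2-6 libraries was also shared by many members. Replicate 1 lay above replicate 3 in 25 of the 31 members, and in 38 of the 55 members with at least 10 counts (69.1%), against 49.7% of all genes. The order replicate 2, replicate 1, replicate 3 from high to low was found in 32 of the 55 members (58.2%), against 20.1% of all genes. For members with at least 100 counts and the replicate 2 excess, replicate 1 over replicate 3 had a median of 1.23. These shares were read from the same 3 libraries, and members next to each other may share reads, so they are not separate observations.

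Solyc01g007700.2, which lies between the pair of most abundant members, ran the other way. It had 1.32, 5.19 and 9.38 CPM in replicates 1, 2 and 3 of IL2-6, and 3.09, 3.93 and 4.14 CPM in IL3-2, so its IL2-6 libraries spread on both sides of the IL3-2 libraries. Solyc01g007730.2, the first member past the stretch, was likewise lowest in replicate 1 and highest in replicate 3 of IL2-6, at 0.0490, 0.700 and 1.36 CPM, against 38.6, 42.5 and 47.2 CPM in IL3-2. Its mean was 60.8-fold higher in IL3-2, on 40 counts in IL2-6 against 4630 in IL3-2. Solyc01g007700.2 was named after its values had been seen.

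**Figure D4:**
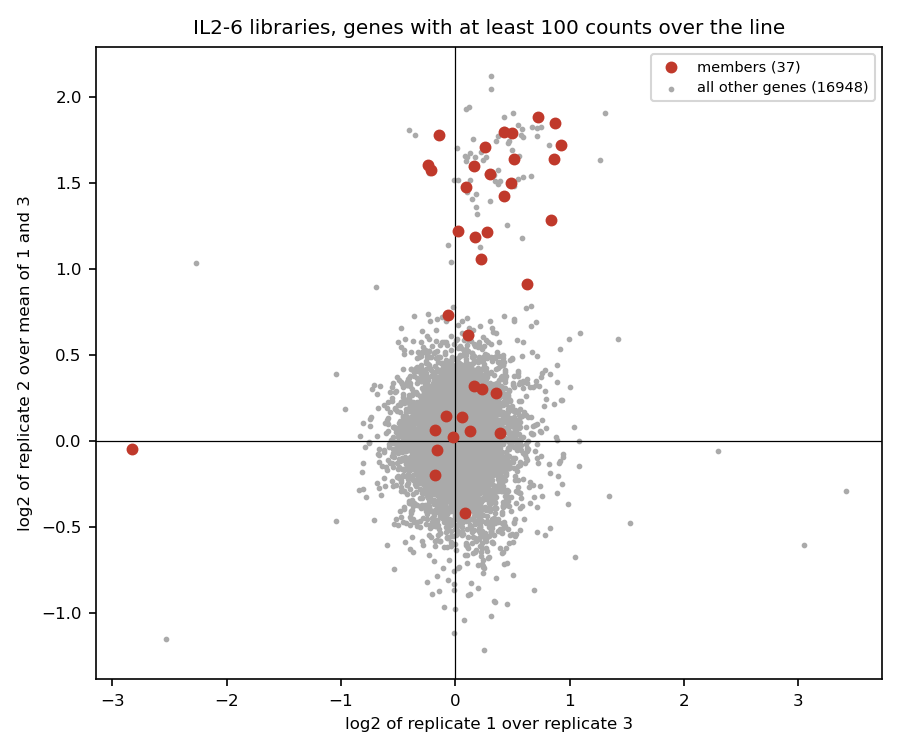
Genes with at least 100 counts over the IL2-6 libraries, 37 members (red) and 16948 others (grey), by the log2 ratio of replicate 1 to replicate 3 (horizontal) and of replicate 2 to the mean of replicates 1 and 3 (vertical). Of the members, 23 lie at least 1.5-fold up in replicate 2 over both other libraries, in a cloud that holds 76 other genes, and Solyc01g007700.2 lies far to the left.

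Ratios among the 3 most abundant members varied little within IL2-6 and differed between the lines. The counts of Solyc01g007690.2 were 4.89, 4.94 and 4.34 times those of Solyc01g007710.2 in the IL2-6 libraries, against 0.0152, 0.0336 and 0.0387 times in the IL3-2 libraries. The counts of Solyc01g007710.2 were 1.75, 1.78 and 2.07 times those of Solyc01g007330.2 in IL2-6 and 1.31, 1.23 and 1.08 times in IL3-2. Over the 6 libraries this second ratio stayed within a factor of 2, whereas Solyc01g007690.2 left the others by a factor of over 100 between lines. The counts of Solyc01g007500.2, a less abundant member, were 0.0905, 0.0740 and 0.0910 times those of Solyc01g007330.2 in IL2-6, lowest in replicate 2. In IL3-2 they were 0.127, 0.167 and 0.167 times.

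Over all members the make-up of the block was less constant than the ratios among the 3 most abundant. It pools members that rose in replicate 2 with members that did not. In IL2-6 the last 16 members summed to 314, 326 and 321 CPM. The stretch from Solyc01g007280.2 to Solyc01g007720.2 summed to 3217, 9498 and 2449 CPM. The replicate 2 ratios of the members that rose were not all alike. The lowest was 1.66 (1.42 to 1.95), for Solyc01g007630.2. It was 2.28 (2.05 to 2.53) for Solyc01g007320.2 and 3.46 (3.37 to 3.55) for Solyc01g007330.2. The intervals of 20 of the 31 included 3.11. The make-up among the members that rose was not tested. Between IL2-6 replicates 1 and 3, 4.50 percentage points of the block's counts would have to be reassigned to make the shares equal, and between replicate 2 and these it was 7.51 and 10.8 points. Without Solyc01g007690.2 these values were 6.23, 17.5 and 22.9 points. The chi-square statistic of the member counts per degree of freedom, which is about 1 for sampling noise alone, was 12.6 between replicates 1 and 3 and 90.0 and 148 between replicate 2 and these, against 2.56, 5.74 and 7.19 for all other genes. In IL3-2 the pairs of libraries gave 1.76 to 5.43 for the members, against 2.33 to 8.30 for all other genes. Between the lines the shares differed by 66.4 to 79.0 points, and by 40.5 to 64.7 points without Solyc01g007690.2.

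Within IL3-2, 6 of the 36 members with at least 100 counts (16.7%) had their highest library at least 1.5-fold above the lowest, against 3.41% of all genes. Among 54 members with at least 10 counts over the IL3-2 libraries, replicate 1 was at most 1 part in 1.5 of both other libraries in 8 (14.8%), against 2.37% of all genes, and it was the lowest in 28 (51.9%), against 38.2%. Of the 8, 6 were among the 31 members with the replicate 2 excess in IL2-6, an excess found in 56.4% of the members with enough IL2-6 counts. On so few members no link between these patterns is read. The lowest of the 8 had 2, 5 and 6 counts in the IL3-2 libraries, and the highest 146, 293 and 427. Solyc01g007720.2, named after its values had been seen, had 16.0, 46.0 and 14.3 CPM in IL2-6. In IL3-2 it had 4.80, 8.52 and 10.1 CPM, with replicate 1 the low library. Solyc01g007500.2 likewise had 24.0, 58.0 and 17.1 CPM in IL2-6, against 3.35, 5.18 and 6.35 CPM in IL3-2. Solyc01g007690.2, on few counts, was lowest in replicate 1 of IL3-2 too.

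Genes elsewhere in the tables shared the pattern. Outside the block, 76 genes with at least 100 counts over IL2-6 had replicate 2 at least 1.5-fold above both other IL2-6 libraries, and together with 23 members they made up 0.583% of the 16985 genes with that many counts, so members were 23.2% of these genes. The 76 were spread over 11 numbered chromosomes, with 13 of them not placed on a chromosome and 13 on chromosome 11, and the longest run of adjacent genes among them was 3. Their ratio of replicate 2 to the others had a median of 2.96, next to 2.99 for the 23 members, and the 1.5-fold limit chose both sets. Replicate 1, whose order to replicate 3 the limit did not use, lay above replicate 3 in 62 of the 76. In 14 of the 23 members, and in 45 of the 76, the mean of IL2-6 replicates 1 and 3 was at least 2-fold the IL3-2 mean, against 4.35% of all genes with at least 100 counts, a comparison that was part of how the members were chosen. The 76 genes summed to 2879, 8576 and 2133 CPM in IL2-6 and 314, 373 and 378 CPM in IL3-2. Members 3 to 47, the stretch with the replicate 2 excess, summed to 3217, 9498 and 2449 CPM in IL2-6. In IL3-2 that stretch summed to 157, 180 and 193 CPM. The sums of the 76 were thus lower than those of the stretch in each IL2-6 library and higher in each IL3-2 library.

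By profile over the 6 libraries, the genes nearest to the summed block were Solyc11g013780.1 and Solyc11g063500.1 on chromosome 11, with root mean square differences of 0.222 and 0.227 in centred log2(CPM + 0.5). Solyc09g055950.1, Solyc02g021290.1 and Solyc01g048590.1 followed, at 0.354, 0.358 and 0.375. The median over the 14562 genes compared was 1.69. The summed profile is mostly Solyc01g007690.2 in IL2-6 and mostly the last 16 members in IL3-2, so it need not match any single member. These distances also include the line difference by which the block was chosen, so they are a description only. Solyc02g021290.1, the most abundant of the 5, had 56.5, 160 and 37.5 CPM in IL2-6 and 3.35, 5.64 and 4.59 CPM in IL3-2. None of the 5 is adjacent to the block.

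Between the lines, 31 of the 50 tested members were called at least 2-fold different, 27 higher and 4 lower in IL2-6 (edgeR quasi-likelihood test on all genes, Benjamini-Hochberg adjusted p under 0.05). Of all 20823 tested genes, 17.0% were called 2-fold different, 4.89% higher and 12.1% lower, and since the block was chosen by such calls, nothing is read from these counts or from the values that follow. A further 12 members were called with a smaller difference, 10 higher and 2 lower in IL2-6, against 46.4% of all genes, and 7 were not called. The median log2 fold change was 1.26 over the tested members and −0.01 over all tested genes. In all 27 higher members, IL2-6 replicate 2 was the highest of the 6 libraries, and 24 of them were among the 31 with the replicate 2 excess. Without IL2-6 replicate 2, 22 were still called 2-fold higher; those that were not are Solyc01g007290.1, Solyc01g007310.2, Solyc01g007370.2, Solyc01g007610.2 and Solyc01g007720.2.

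The 27 higher members formed 10 runs, the longest being the 6 genes from Solyc01g007330.2 to Solyc01g007380.1. Solyc01g007510.1 had 22, 57 and 15 counts in the IL2-6 libraries and none in IL3-2. Its mean in IL2-6 was 1.72 ± 1.40 CPM (SD, n = 3). With IL3-2 set to a chosen floor of 3 counts over the line in place of 0, or 0.0280 CPM, that mean was 61.4-fold higher. Without IL2-6 replicate 2 it was 32.7-fold higher. The spread of the IL2-6 libraries does not enter these folds. Solyc01g007440.1, also a low member, had 1.08, 2.22 and 1.21 CPM in IL2-6 and 0.0985, 0.116 and 0.142 CPM in IL3-2, and its means differed 12.6-fold on 84 and 13 counts. The groups of both did not overlap.

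The 4 members called lower in IL2-6 all belonged to the last 16, which lacked the replicate 2 excess. Solyc01g007730.2 opens that stretch with the largest such difference, a log2 fold change of −5.93. Solyc01g007780.2 had 0.686, 0.817 and 1.16 CPM in IL2-6 and 5.06, 5.58 and 4.55 CPM in IL3-2, a log2 fold change of −2.50. Solyc01g007810.1 had 0.637, 0.875 and 0.706 CPM in IL2-6 and 2.69, 2.44 and 2.70 CPM in IL3-2. Solyc01g007800.2 had 0.294, 0.117 and 0.151 CPM in IL2-6 and 0.525, 0.436 and 0.639 CPM in IL3-2, on 11 counts in IL2-6. In each of the 4 every IL2-6 library lay below every IL3-2 library. Of all 20823 tested genes, 13191 were called different at any size. The share of all genes without overlap was not counted, so nothing is read from it here.

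The abundant members of the last 16 were less than 2-fold apart between the lines. Solyc01g007860.2 had 104, 118 and 109 CPM in IL2-6 and 87.4, 85.7 and 84.0 CPM in IL3-2, a log2 fold change of 0.36. Solyc01g007740.2 had 75.8, 77.5 and 76.8 CPM in IL2-6 and 59.1, 58.4 and 61.4 CPM in IL3-2, also 0.36. In both, every IL2-6 library lay above every IL3-2 library. Solyc01g007770.2, Solyc01g007790.2 and Solyc01g007850.2 averaged 31.6 ± 1.91, 22.4 ± 1.12 and 23.8 ± 3.82 CPM over the 3 IL2-6 libraries, against 27.4 ± 0.434, 21.1 ± 0.551 and 19.8 ± 1.72 CPM over the 3 IL3-2 libraries (SD). Solyc01g007670.2, inside the earlier stretch, averaged 27.4 ± 3.99 CPM in IL2-6 and 16.9 ± 0.267 CPM in IL3-2 and had a small replicate 2 ratio of 1.23 (1.11 to 1.37).

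The values around the borders are a description, since line differences in these same libraries set the borders. Just inside, Solyc01g007260.2 averaged 5.29 ± 0.862 CPM in IL2-6 and 6.68 ± 0.621 CPM in IL3-2, Solyc01g007270.1 had no count in IL2-6 and 4 in IL3-2, and Solyc01g007280.2 averaged 3.22 ± 1.72 CPM in IL2-6, against 0.964 ± 0.102 CPM in IL3-2 (SD over 3 libraries a line). At the far end, Solyc01g007870.2 averaged 0.913 ± 0.119 CPM in IL2-6 and 1.40 ± 0.152 CPM in IL3-2, and Solyc01g007880.2 averaged 8.66 ± 0.502 CPM in IL2-6 and 7.49 ± 0.0623 CPM in IL3-2. Just outside, Solyc01g007230.2 and Solyc01g007250.2 had log2 fold changes of 0.16 and 0.45, Solyc01g007240.2 had no count in IL2-6, and Solyc01g007890.1, Solyc01g007900.2 and Solyc01g007910.2 had −0.11, 0.03 and −0.17. Among the 100 genes flanking the block, 50 on each side, 85 had at least 10 counts over IL2-6. Of these, 2 had the replicate 2 excess, against 2.33% of all genes. Of the 84 flanking genes tested, 3 were called 2-fold higher and 9 2-fold lower in IL2-6, against 4.89% and 12.1% of all tested genes.

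The other 13 members were too low to test. Of these, 3 were at 0 counts in all 6 libraries, namely Solyc01g007580.2, Solyc01g007590.2 and Solyc01g007620.2, and the other 10 had a summed count of at most 53. Identifiers with version suffix 1 made up 16 of the 63 members (25.4%), against 54.9% of all listed genes and 69.7% of the 76 genes elsewhere with the replicate 2 excess. The members and the listed genes include those with few or no counts, whereas the 76 had at least 100 counts over IL2-6. These shares are therefore not like for like.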

How the data were processed

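The deposited values are raw gene counts, 1 table per library, and each library's totals differ. HTSeq, TopHat2, Trimmomatic, edgeR, SAMtools and CASAVA 1.8.2 are named without role or order, per the submitters' processing notes; build, annotation and strand setting of the counts were not given in the sources used here, so counts of overlapping genes and near-identical copies are uncertain. The title of each sample gave its line. Identifier order stands for gene order. Counts were filtered with filterByExpr, scaled with TMM factors and tested across all genes with edgeR 4.0.16 in R 4.3.3 (quasi-likelihood, line as the only term, Benjamini-Hochberg adjusted p under 0.05), tried first on simulated counts; DESeq2 1.42.0 and limma-voom (limma 3.58.1) were alternatives. Intervals are exact Clopper-Pearson (scipy 1.17.1). The members, lists and rules were chosen with earlier results of these data known. Named members were the 12 of highest mean CPM, the 5 most extreme 2-fold calls in each direction (4 lower ones existed), the ends of the longest run, 3 genes on either side of each border and the 5 genes of most similar profile, plus those said to be named after their values were seen. Lists of organelle, photosynthesis and marker genes, and M82 records inside the block, were planned but not used, since no annotation was at hand. The p-values rest on the spread among these libraries alone, and that spread may be technical.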

Additional observations from a re-analysis of the deposited data

How the results depend on the processing

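The summed level of the block, 3.45 as log2 of IL2-6 over IL3-2, was 1.85 without Solyc01g007690.2 and 0.53 without the 3 most abundant members, an alternative added after the data were seen. Leaving out 1 library at a time gave 2.68 to 3.77, lowest without IL2-6 replicate 2, and other scalings gave 3.28 to 3.46. The 31 members called 2-fold were 26 to 32 with a library left out, 30 with DESeq2, 29 with limma-voom and 33 without a filter on low counts. IL2-6 replicate 2 was highest in 42 of 55 members, in 41 with raw totals, and in 39 of 49 with at least 30 counts. With IL2-6 replicate 1 or 3 left out it was the higher in 45 and 48 of 55, a comparison of fewer libraries. At 2-fold over both other libraries 24 members remained, against 31 at 1.5-fold. The deviations of same-numbered libraries correlated at −0.119 to −0.00845 in the 3 pairs, so they showed no strong shared deviation. With so few libraries this cannot show whether they were paired by plot, harvest or batch. In a fit with replicate as a block, 31 members were called 2-fold, and the mean log2 ratio of same-numbered libraries was 3.23. Of 202 alternative values for 17 named members, 191 kept direction and side of the threshold, and most members were picked as extremes of these data. Solyc01g007320.2, at −0.05, was called only without IL2-6 replicate 2 (−0.54) and turned to 0.13, 0.18 and 0.00 without IL2-6 replicate 1, IL2-6 replicate 3 and IL3-2 replicate 2, in no case called. Solyc01g007790.2, at 0.09, was −0.08 with raw totals, also not called. Solyc01g007770.2 lost its call with raw totals, and Solyc01g007850.2 in 5 settings. The 4 members with 1 to 9 counts over IL2-6 were left out of the replicate patterns; replicate 2 was highest in all 4.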
